A study of Caenorhabditis elegans with 2 samples.

Results

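The 40 nuclear pore and nuclear transport genes described here, of 19973 nuclear protein-coding genes in all, were chosen by name: every gene whose name begins with npp-, imb-, ima-, xpo- or ran- and a number in the Ensembl annotation of WBcel235. No measured value entered that rule, but the group was picked for study with LIN-35 binding results of these data already known, so its counts and signals are given as a description with no test. Of the 40 genes, 26 are npp genes, 3 ima, 3 imb, 3 xpo and 5 ran. LIN-35 is the only retinoblastoma-family protein of Caenorhabditis elegans, and its binding was measured by ChIP-seq in whole young adults. Their sex is recorded as males and females pooled, although the species has hermaphrodites and males. There is 1 group, with 2 biological replicates. Both come from strain YL521, of genotype unc-119(ed3) III with the integrated array vrIs117, in which the germline promoter of pie-1 drives LIN-35 tagged with GFP and FLAG, with the puf-5 3'UTR and a wild-type unc-119 gene. The labels list the antibody as lin-35 and do not say how much of the precipitated protein was transgenic. Whole animals were used, so germline and somatic binding cannot be told apart, and no strain without the transgene was compared here.

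The nuclear pore is a channel through the nuclear envelope, built from many copies of each nucleoporin. A Y-shaped complex and an inner ring form its scaffold, proteins rich in phenylalanine-glycine repeats fill the channel, and further proteins form the cytoplasmic filaments, the nuclear basket and the membrane anchor. Importins and exportins carry cargo through the channel, and the small GTPase Ran, kept in its GTP form inside the nucleus and its GDP form outside, gives that traffic its direction. LIN-35 acts in the DREAM complex, whose E2F and DP partners recognise GC-rich E2F sites and whose LIN-54 subunit recognises the CHR element, and DREAM is known as a repressor of cell cycle genes.

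The words searched for were the E2F words (TTCCCGC or else TTCGCGC or else TTGCCGC or else TTGGCGC) and the CHR words (TTCGAA or else TTTGAA), on both strands, within 100 bp of each summit. The sites below are a selection of those within 100 bp of the LIN-35 summits of members described in the following paragraphs. Capitals mark the word, and each is written 5′ to 3′ on the strand that carries it. The ce11 coordinates and 10 bases on each side are given, from the RefSeq sequence of WBcel235. The E2F words come first.
npp-3, chrII:11874868-11874894, plus strand: ctgtgtatttTTCGCGCgttcgctgcg
npp-3, chrII:11874930-11874956, plus strand: gacgctcattTTGGCGCgctcagttgt
npp-19, chrII:10798732-10798758, minus strand: ttctctttatTTCCCGCagaaaacctc
npp-23, chrIV:8869844-8869870, minus strand: aaattaaataTTCCCGCcgataacgcc
npp-8, chrIV:1595906-1595932, plus strand: cccggaaaacTTCCCGCaaaacgcaac
npp-8, chrIV:1595925-1595951, plus strand: aacgcaacttTTCGCGCaaaattccga
npp-20, chrIV:1496151-1496177, minus strand: tccacgttccTTGGCGCacgagaaaca
npp-9, chrIII:3404573-3404599, minus strand: tttgcgaagcTTGGCGCccaatttcta
ran-1, chrIII:10748132-10748158, minus strand: tttgttcattTTGGCGCgcaaatctgg
ima-1, chrV:11239435-11239461, minus strand: gtggaattatTTCCCGCgtgccgccag
The CHR words shown are a smaller part of those found, since 19 of the 23 summit windows held one.
npp-3, chrII:11874911-11874936, plus strand: ggccgccaatTTCGAAtcggacgctc
npp-9, chrIII:3404591-3404616, plus strand: cttcgcaaatTTCGAAaaaagttcaa
imb-2, chrII:14365385-14365410, minus strand: acaagggaaaTTTGAAaataattgtt
ran-3, chrII:8325314-8325339, plus strand: cggagctactTTTGAAatttgcaatg
The E2F words at npp-3, npp-9 and ima-1 that lie nearest to the summit have their centre 3, 4 and 3 bp from it. The first word printed for npp-8 lies outside the listed peak, which starts at 1595931, and the other words printed lie inside the peaks of their genes.

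LIN-35 peaks lay at the 5' ends of most of these genes. A gene was counted as bound when a peak of the authors' list thresholded by irreproducible discovery rate had its summit no more than 500 bp from the 5' end of the gene; 23 of the 40 genes (57.5%) were bound, and so were 8.61% of all nuclear coding genes. The signal value of a peak is the authors' own, on a scale that is not stated, and serves here only to order peaks within a list. Among the bound genes it ran from 42.3 to 528 with a median of 107, beside a median of 86.1 over all bound coding genes. With the thresholded list cut by rank into 4 equal parts, 10 of the 23 (43.5%) lay in the strongest and 2 (8.70%) in the weakest, beside 36.8% and 14.3% of all bound coding genes. In the order of the 2712 thresholded peaks, the importin and inner ring genes imb-3 (48), npp-3 (66), npp-19 (67) and ima-2 (77) came first, and the filament gene npp-14 (182) was the next. A middle set followed, of npp-23 (369), ran-5 (480), npp-18 (515), ran-1 (567), imb-1 (636), npp-8 (710), imb-2 (715), npp-20 (904), npp-7 (924) and npp-13 (926). The last were npp-6 (1306), ima-1 (1553), npp-24 (1559), npp-9 (1566), xpo-1 (1700), ran-3 (1919), xpo-2 (2563) and npp-25 (2677). Both bound exportin genes and the only bound membrane gene stood in that last set. Each bound member had 1 thresholded summit in reach, and no summit served as the peak of more than 1 member.

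**Figure D1:**
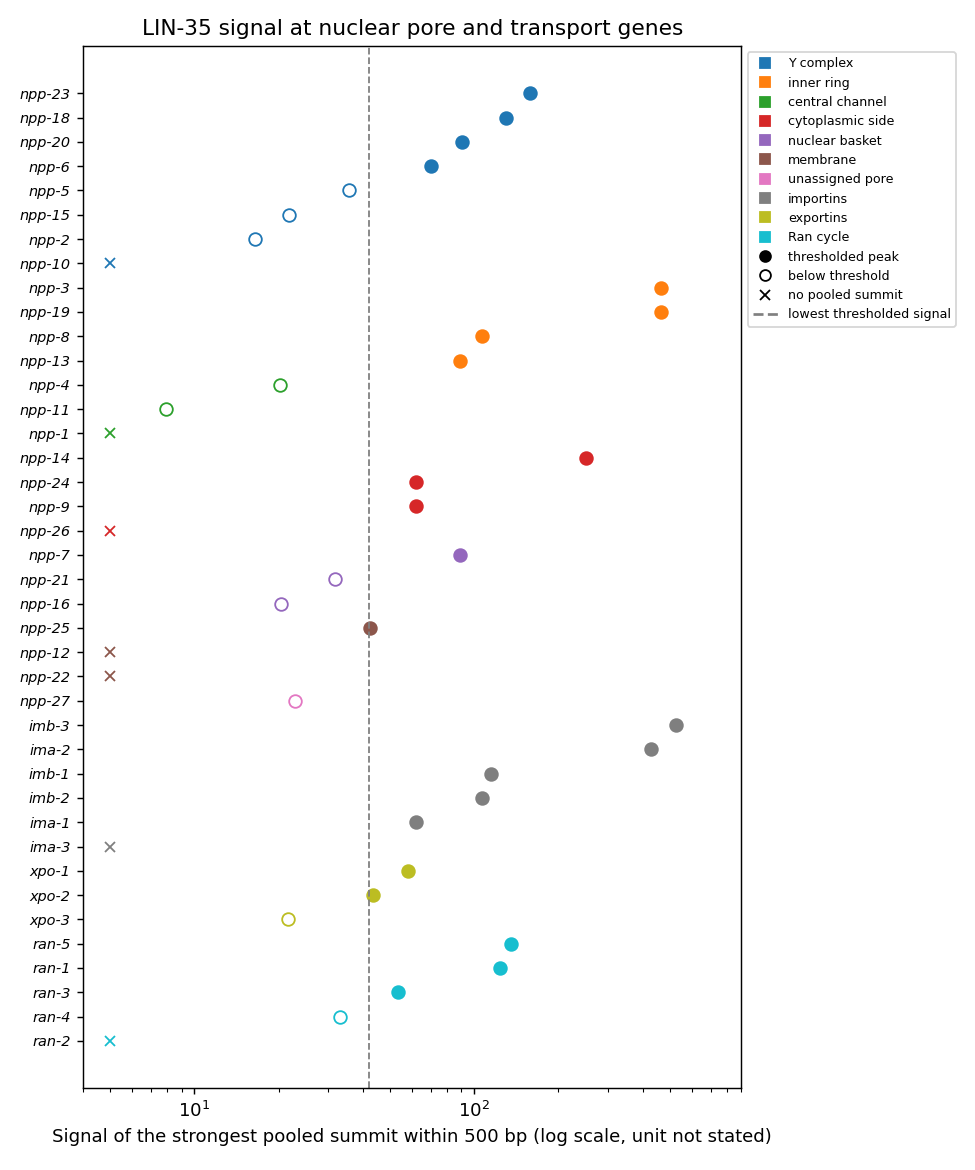
Signal of the strongest summit within 500 bp of the 5' end of each of the 40 genes in the pooled list (x axis, log scale, unit not stated), coloured by role; filled points passed the authors' threshold, open points did not, and crosses at the left edge mark genes with no pooled summit in reach and carry no value. All 4 inner ring genes are filled, none of the 3 central channel genes is, and imb-3 has the highest signal at 528.

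All 4 genes of the inner ring, the scaffold layer that lines the channel, were bound. npp-3 had a signal of 464 in the thresholded list, 165 in replicate 1 and 294 in replicate 2, with a peak at chromosome II 11874726 to 11875036. npp-19 had 464, 151 and 312 in the same order, with a peak at chromosome II 10798536 to 10798825. These peaks were 66th and 67th of 2712 in the thresholded list, and both were among the 100 strongest of each replicate. npp-8 had 107 in the thresholded list (chromosome IV 1595931 to 1596085), 58.8 in replicate 1 and 57.1 in replicate 2. npp-13, whose protein organises the ring, had 88.7, 26 and 41.1. Signals in different lists are not on 1 scale, so only the ranks within a list are compared: npp-8 ranked 392 in replicate 1 and 950 in replicate 2, and npp-13 ranked 1653 and 1537.

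Of the 8 genes of the Y complex, 4 were bound. npp-23 had the highest signal of them at 158, with 39.2 in replicate 1 and 113 in replicate 2 (chromosome IV 8869722 to 8869927). npp-18, the Seh orthologue, had 130, 40.3 and 89.3. npp-20, the Sec orthologue that also coats vesicles leaving the endoplasmic reticulum, had 90.1, 16.4 and 65.5. The peak of npp-20 was among the 2712 strongest of replicate 2, at rank 767, and not of replicate 1, at rank 3597. npp-6, another scaffold subunit, had 70.3, 33.8 and 30.2. npp-2, npp-5, npp-10 and npp-15 were not bound, and the pooled signals of npp-2, npp-5 and npp-15 were 16.5, 35.7 and 21.8. npp-10 encodes a precursor that is cut into a scaffold protein and a repeat protein; it had no pooled summit in reach and a signal of 17.9 in replicate 1 only.

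The 3 central channel genes, npp-1, npp-4 and npp-11, which encode the repeat proteins of the channel, were all unbound. Over all nuclear coding genes only 8.61% were bound, and 3 genes are too few to call the group depleted. npp-4 had a pooled signal of 20.2 at rank 7854 and npp-11 had 7.88 at rank 21394, while npp-1 had no pooled summit in reach. The nearest thresholded summit lay 80750 bp from npp-1, 15115 bp from npp-4 and 4747 bp from npp-11.

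Peripheral and membrane genes were mixed. On the cytoplasmic side 3 of 4 genes were bound. npp-14, a filament protein, had a signal of 251 with 77.3 in replicate 1 and 175 in replicate 2, and npp-9, which encodes the large Ran-binding protein of the filaments, had 61.8, 27.1 and 37.0. npp-24 had 61.9 in the thresholded list and 37.5 in replicate 2, and replicate 1 had no summit within 500 bp of its 5' end. The unbound gene was npp-26, which RefSeq names nucleoporin GLE1. Of the 3 basket genes only npp-7 was bound (88.8, with 35.1 and 56.9 in the replicates), and npp-16 (pooled signal 20.3) and npp-21 (31.8), the TPR orthologue, were not. Of the 3 membrane genes only npp-25, a transmembrane protein, was bound, at 42.3 with 9.92 and 24.6 in the replicates. The large membrane glycoprotein gene npp-12 was unbound. The nearest thresholded summit, with a signal of 120, lay 667 bp from its 5' end and nearer to that of T23H2.3, a gene on the opposite strand that starts 839 bp upstream of npp-12 and was itself bound. npp-27, which is not placed in the pore here, was unbound at a pooled signal of 22.8.

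Among the transport receptors, 5 of 6 importin genes and 2 of 3 exportin genes were bound. imb-3, an importin of the beta family, carried the highest signal of all 40 genes at 528, with 196 in replicate 1 and 339 in replicate 2 (chromosome I 315109 to 315391). The importin alpha gene ima-2 had 430, 144 and 293 (chromosome I 6314770 to 6315040). Both ranked among the 102 strongest peaks of each replicate. imb-1, the importin beta that pairs with importin alpha, had 115, 30.1 and 79.8. imb-2, the transportin gene, had 107, 41.0 and 69.2. ima-1, another importin alpha gene, had 62.1, 35.8 and 27.4. The third importin alpha gene, ima-3, known for its role in oocyte development, had no pooled summit in reach and only a signal of 6.89 in replicate 1. The exportins were weaker: xpo-1, the main exportin for leucine-rich export signals, had 58.2, 8.76 and 49.9, and xpo-2, which returns importin alpha to the cytoplasm, had 43.6, 18.9 and 21.4. xpo-3, the tRNA exportin, was unbound at a pooled signal of 21.6. xpo-7, which RefSeq names and the Ensembl annotation gives by its sequence name only, is outside the rule; it was bound at a signal of 45.4.

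Of the 5 Ran genes, 3 were bound. ran-1, which encodes the GTPase itself, had a signal of 124 with 56.1 in replicate 1 and 61.9 in replicate 2 (chromosome III 10748140 to 10748282). ran-3, its nucleotide exchange factor, had 53.4, 6.27 and 47.2, and ran-5, which RefSeq describes by its Ran-binding domain, had 135, 33.0 and 80.4. ran-2, the GTPase-activating protein, and ran-4, which brings Ran back into the nucleus, were unbound. ran-4 had a pooled signal of 33.1 at rank 3848, and ran-2 had only a signal of 15.8 in replicate 2.

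The threshold ran between genes of similar signal. The lowest thresholded signal was 41.9; just inside were npp-25 at 42.3 (rank 2677) and xpo-2 at 43.6 (rank 2563), and just outside were npp-5 at 35.7 (rank 3446) and ran-4 at 33.1 (rank 3848). In all, 33 of the 40 genes (82.5%) had a summit of any strength in the pooled list, beside 29.2% of all coding genes. Of the 17 unbound genes, 10 had such a pooled summit, and npp-12 and npp-26 had a summit in neither replicate list.

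The replicates were compared by taking the 2712 strongest peaks of each, the length of the thresholded list. Replicate 1 placed such a peak at 19 of the 40 genes (47.5%, beside 7.75% of all coding genes) and replicate 2 at 23 (57.5%, beside 8.47%). Both did so at 17 genes (42.5%, beside 5.65%), replicate 1 alone at 2, replicate 2 alone at 6 and neither at 15. The shares of all coding genes for replicate 1 alone, replicate 2 alone and neither were not counted separately. The 17 genes were all bound, and the other 6 bound genes, npp-20, npp-24, xpo-1, ran-3, xpo-2 and npp-25, were outside the 2712 strongest of at least 1 replicate. xpo-1 ranked 9612 in replicate 1 and 1155 in replicate 2, and ran-3 ranked 14322 and 1263. xpo-2 and npp-25 were among the strongest of neither, at ranks 2812 and 3636 and at ranks 8125 and 3060. The thresholded list was derived from both replicates, so their agreement is no independent check of it.

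Replicate 2 ranked the members higher than replicate 1 in most cases. Among 22 bound members with a summit no more than 200 bp away in each replicate list, 16 (72.7%) ranked higher in replicate 2, beside 58.5% of 1649 bound coding genes. Among summits matched within 200 bp, the gap to the thresholded summit had a median of 16.5 bp in replicate 1 and 7 bp in replicate 2. The largest gaps were 140 and 156 bp, and the matching rule allows none above 200 bp. The thresholded summits came from both replicates pooled, so these gaps are no independent check of position. The read depth of each library is unknown, and its part in the difference was not tested.

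Some unbound genes had a strong peak in 1 replicate. npp-22, the membrane anchor gene of the NDC family, had a signal of 82.2 at rank 544 in replicate 2, with no summit in reach in replicate 1 or in the pooled list. npp-5 of the Y complex had 35 at rank 1930 in replicate 2 and none in replicate 1. In the other direction npp-16 of the basket had 21 at rank 2384 in replicate 1 and none in replicate 2, and npp-27 had 23.6 at rank 1935 in replicate 1 and 18.9 at rank 4253 in replicate 2.

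**Figure D2:**
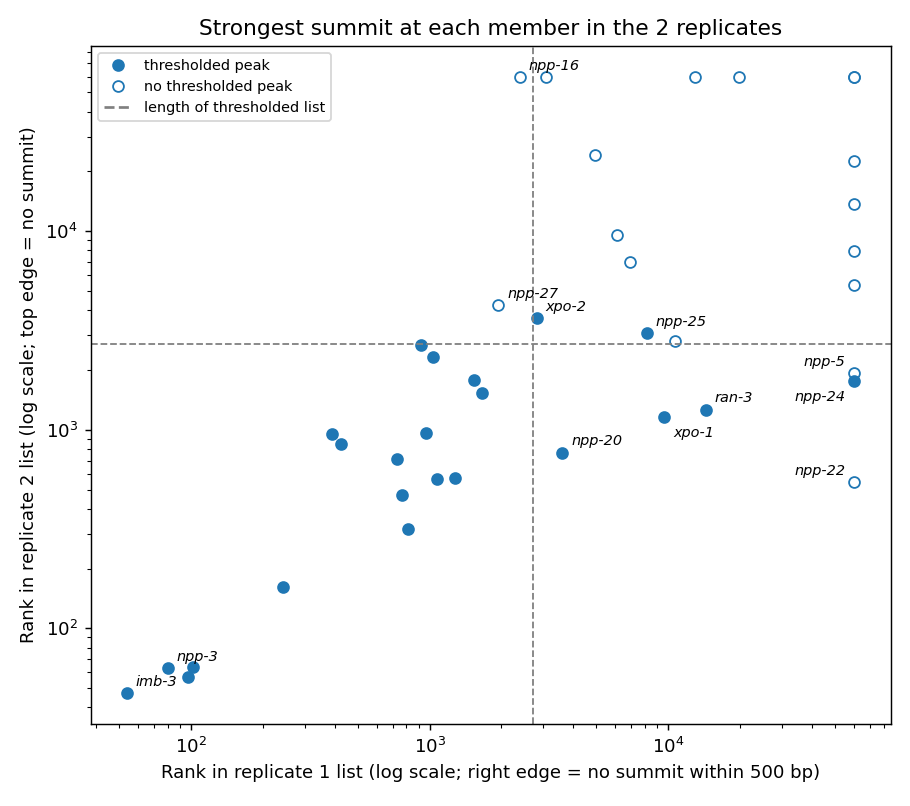
Rank of the strongest summit within 500 bp of each gene in the replicate 1 list (x axis, log scale) and the replicate 2 list (y axis, log scale), where 1 is strongest; points on the right or top edge had no summit in that list, and dashed lines mark the length of the thresholded list, 2712. Of the filled (bound) points, 17 lie inside both lines, and npp-22 lies on the right edge at rank 544 of replicate 2.

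Most summits lay upstream of the genes and outside them. Of the 23 bound members, 22 (95.7%) had the summit upstream of the 5' end, beside 89.2% of all bound coding genes. Of the 23 summits, 20 (87.0%) were intergenic, a share that was not counted over all bound coding genes. The distance had a median of 242 bp and ran from 93 bp at imb-1 to 488 bp at ran-1, and the median over all bound coding genes was 194 bp. npp-24 was the exception in direction: its summit lay 242 bp downstream of the 5' end, inside its 5' UTR, at chromosome II 5506112. The summit near npp-6 lay in an intron of spd-5 and that near ran-5 in a coding exon of R12C12.6. The annotated 5' end of a worm gene may mark a trans-splice site, so the distance to the start of transcription is not known. At 8 members, npp-20 and the 7 of lowest signal, the peak was 296 bp wide, the most frequent width in the thresholded list (55.2% of peaks).

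Most bound members shared their summit with a divergent neighbour. At 13 of the 23 (56.5%, beside 44.0% of all bound coding genes that share theirs) another coding gene had its 5' end within 500 bp of the summit, and in each case it was 1 gene on the opposite strand. The neighbour was nearer at 9 of the 13, so 14 of the 23 (60.9%) were the nearest gene, beside 77.7% of all bound coding genes. npp-3 shared its summit with top-2, which encodes topoisomerase II, at 96 and 264 bp. The summit of ran-1 was 488 bp from ran-1 and 213 bp from dkc-1, the dyskerin gene of pseudouridine synthesis. The summit of npp-6 was 394 bp from npp-6 and 219 bp from spd-5, a centrosome scaffold gene. That of npp-14 was 268 bp away and 68 bp from cel-1, the mRNA capping enzyme gene, and that of npp-7 was 468 bp away and 293 bp from unc-40, the netrin receptor gene. ran-3 lay 314 bp from its summit and C26D10.3 20 bp, and ran-5 lay 256 bp away and R12C12.6 14 bp. In each of these pairs but the first, the neighbour was nearer. It was also nearer for ima-1 (224 bp) with dvc-1 (120 bp), a gene for a protease of DNA-protein crosslinks, for imb-1 (93 bp) with mfsd-13.1 (56 bp), and for npp-25 (312 bp) with the mitochondrial ribosomal gene mrps-10 (248 bp). The member was nearer for npp-9 (111 bp) with F59A2.5 (273 bp), for xpo-1 (404 bp) with uvs-1 (452 bp), and for xpo-2 (177 bp) with nol-14 (326 bp). The lists do not say which gene of a pair a shared peak belongs to.

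**Figure D3:**
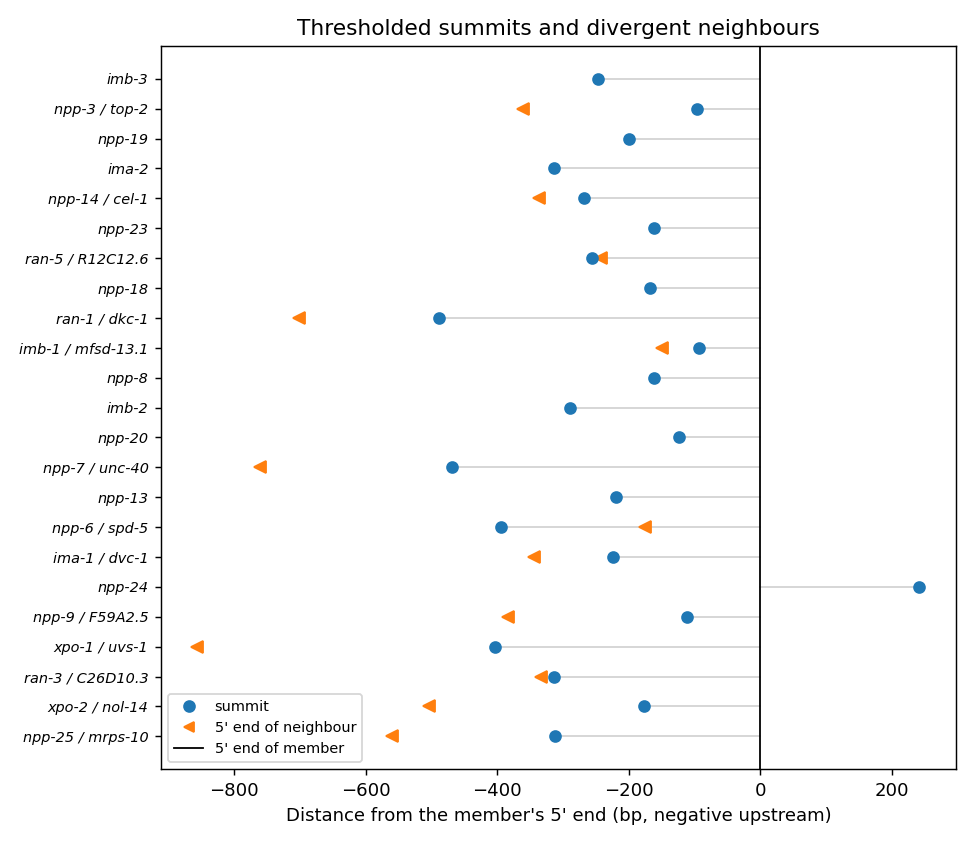
Position of the thresholded summit (circles) and of the 5' end of the divergent neighbour that shares it (triangles) relative to the 5' end of each of the 23 bound members (x axis, bp, negative upstream; the vertical line is the member's own 5' end), strongest signal at the top. All summits but that of npp-24 lie upstream, and 13 members have a neighbour.

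The members without such a neighbour included some of the strongest. imb-3 (247 bp), npp-19 (200 bp), ima-2 (314 bp), npp-23 (161 bp), npp-18 (168 bp), npp-8 (161 bp), imb-2 (289 bp), npp-20 (123 bp), npp-13 (220 bp) and npp-24 had no other coding 5' end within 500 bp of their summit. Of them, imb-3, npp-19 and ima-2 ranked 48, 67 and 77 in the thresholded list.

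Gene order upstream of bound and unbound members is given as counts, and a difference between them was not tested. A same-strand gene ended within 1000 bp upstream of 3 of the 23 bound members (13%) and of 6 of the 17 unbound ones (35.3%), beside 24.3% of bound and 28.9% of unbound coding genes. The 6 were ima-3, npp-1, npp-4, npp-22, npp-26 and ran-2. A gene on the opposite strand lay within 1000 bp upstream of 13 bound members (56.5%) and 7 unbound members (41.2%), beside 46.6% of bound and 14.8% of unbound coding genes. Some members are themselves neighbours. ran-2 lies 480 bp downstream of npp-15 on the same strand, and both were unbound. imb-3 lies 3560 bp downstream of xpo-2 on the same strand, and each had its own peak, with signals of 528 and 43.6.

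The count by distance rose to 500 bp and then levelled. Within 100 bp 2 members had a thresholded summit, within 200 bp 9 (22.5%), within 300 bp 16, and within 2000 bp 24 (60.0%). Over all coding genes the share was 1.71% within 100 bp and 4.49% within 200 bp, and it reached 15.1% within 2000 bp. The gene added beyond 500 bp was npp-12, through the summit that lies nearer to T23H2.3.

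**Figure D4:**
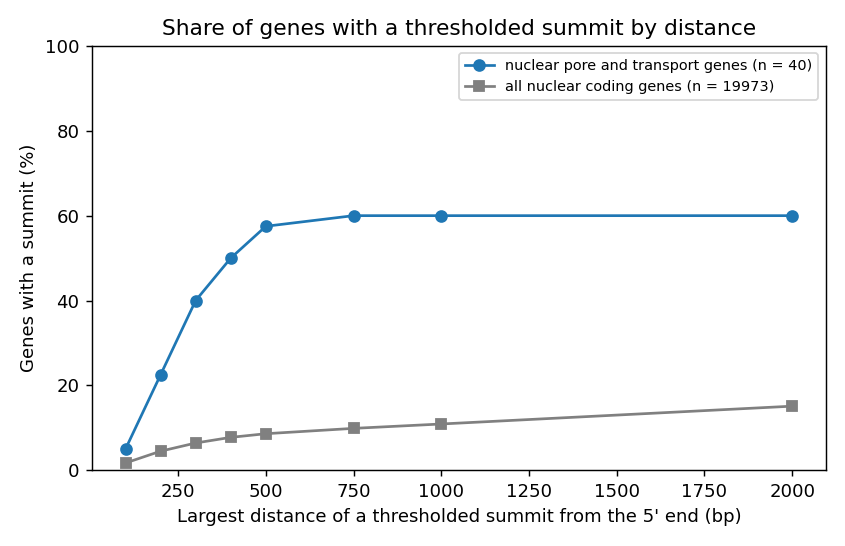
Share of genes with a thresholded summit (y axis, percent) by the largest distance allowed from the 5' end (x axis, bp), for the 40 nuclear pore and transport genes (circles) and all 19973 nuclear coding genes (squares). The members level at 60.0% from 750 bp on, while the share of all coding genes rises to 15.1% at 2000 bp.

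No member lies on the X chromosome. Chromosome I holds 13 members, of which 8 were bound (61.5%, beside 13.3% of its coding genes), chromosome II has 6 of 8 (75.0%, beside 8.18%), chromosome III 4 of 8 (beside 14.5%), chromosome IV 3 of 8 (37.5%, beside 8.66%) and chromosome V 2 of 3 (66.7%, beside 5.57%).

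The E2F word was present at about as many bound members as not, and the CHR word at most. Of the 23 summit windows, 12 (52.2%) held an E2F word and 19 (82.6%) a CHR word; 10 held both (43.5%) and 2, those of ran-5 and xpo-1, held neither. Over the 1335 summits at all bound coding genes the shares were 25% for E2F, 55.4% for CHR and 17% for both. Windows of the same length centred on the 5' ends of all 19973 coding genes held them in 5.30% and 50.5% of cases, and windows centred 150 bp upstream in 6.89% and 55.9%. The mean GC content of the members' windows was 39.6%, beside 40.2% over all summits at bound coding genes and 36.4% at all 5' ends. The words read backwards, which keep their base composition, served as a comparison. The reversed E2F word was in 0 of 23 windows, beside 14.5% of all summits at bound coding genes and 3.60% of all 5' ends. A count of 0 was taken to allow up to 3 windows (13%), a rough limit that is no test against those shares. The reversed CHR word was in 7 of 23 windows (30.4%), beside 24.6% and 32.8%. None of the 17 E2F words overlapped a CHR word. A word is a run of letters and was not shown here to be a site of binding.

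E2F words were more frequent at the stronger members. In the stronger part of the thresholded list, split at its middle rank, 10 of 16 members (62.5%) held one, and in the weaker part 2 of 7 (28.6%); over all summits at bound coding genes the shares were 30.6% and 16%. The CHR word was in 14 of 16 (87.5%) and 5 of 7 (71.4%), beside 60.8% and 46.6%. The 4 strongest members, imb-3, npp-3, npp-19 and ima-2, held both words, and ima-2 held 4 E2F words, more than any other member, with the nearest 13 bp from the summit. Of the E2F words at ima-2, 2 overlap each other on opposite strands and were counted separately. npp-14, the next in signal, held 2 CHR words and no E2F word. Of the 17 unbound members, in windows centred 150 bp upstream of the 5' end, 3 (17.6%) held an E2F word and 13 (76.5%) a CHR word, and the reversed words were in 3 and 9.

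**Figure D5:**
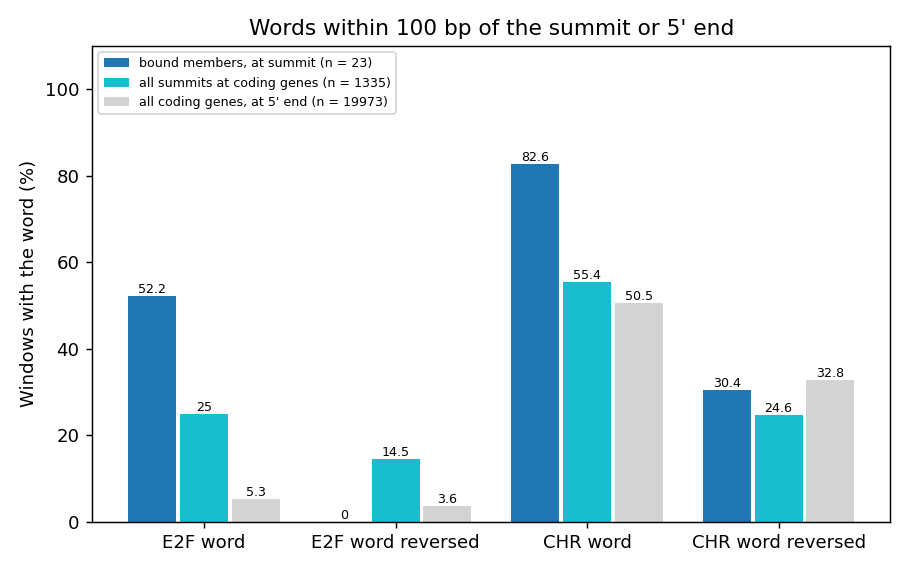
Share of windows (y axis, percent, starting at 0) that hold an E2F or a CHR word or its reversed form, for 23 windows at the summits of bound members, 1335 at summits of all bound coding genes and 19973 at the 5' ends of all coding genes, each 100 bp to either side. The E2F word stands at 52.2% in the members and 25% over all summits, and its reversed form at 0 and 14.5%.

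Other genes of the nuclear envelope and of transport, from a list of 27 genes that do not carry the names used in the rule, were bound in 10 cases (37.0%). The share over all nuclear coding genes was 8.61%. Of 11 envelope and lamina genes 4 were bound, the LEM-domain genes emr-1 (signal 57.4), lem-2 (76.6) and lem-3 (107) and baf-1 (69.0), which bridges DNA and LEM proteins. The lamin gene lmn-1, the SUN-domain genes unc-84 and sun-1, and mel-28, which seeds pores on chromatin, were not bound. Of 12 mRNA export genes 4 were bound, the THO subunit gene thoc-5 (254), the helicase gene hel-1 (190), nxt-1 (80.9) and its partner nxf-1 (55.6), while the adaptor genes aly-1, aly-2 and aly-3 were not. The summit counted for nxf-1 lay 286 bp from its 5' end and nearer, at 199 bp, to that of C15H11.11. Of 4 SUMO genes 2 were bound, the modifier gene smo-1 (155) and the conjugating enzyme gene ubc-9 (72.9).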

How the data were processed

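The deposited files are narrowPeak lists in ce11; the ce10 lists were not used, since the annotation is WBcel235 (the same assembly as ce11) and coordinates were not converted. Per the deposited text indexes, a relaxed list came from each replicate (30000 and 26192 peaks) and from both pooled (30000), each against a control, and the list of 2712 peaks thresholded by irreproducible discovery rate was derived from them. Its peaks are the 2712 strongest pooled peaks. The authors deposited a signal value per peak; how it is scaled is not stated. The aligner, like the peak caller, is not given in the sources used here. Read depth is unknown. Depth sets which weak peaks can be listed, and no interval covers it.

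Gene positions came from Ensembl release 115. Each gene was given the strongest summit within 500 bp of its 5' end; summits of different lists were matched within 200 bp. Words were counted in windows of 201 bp. Positions are 1-based. The summit rule and the word search were tested on simulated data. Python 3.11.15 and matplotlib 3.10.9 were used. All bound members are named with their values, unbound members are named by group with any pooled value, as are those just inside and outside the threshold, and neighbours are named where their 5' end lies within 500 bp of a member's summit. The members, the related list and the roles were chosen with earlier results of these data known. With 1 group and 2 replicates no test between samples was made.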

Additional observations from a re-analysis of the deposited data

How the results depend on the processing

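Of 36 values under other settings, 28 were within 1.5 times the reported one. With summits within 200 bp the bound members fell from 23 to 9 (all coding genes 4.49%), those nearest to their summit to 8, those among the strongest of both replicates to 5 and those with an E2F word to 6. Counting a summit for its nearest 5' end only gave 14 bound members (all coding genes 6.71%). The share of all coding genes was 5.52% with the stronger part of the list and 5.48% with peaks among the strongest of both replicates, where 16 and 17 members were bound. Replicate 2 alone gave 23 (all coding genes 8.47%) and replicate 1 alone 19 (7.75%). Any annotated transcript end, a setting chosen after seeing the data, gave 23 (all coding genes 9.17%). The median signal was not computed from single replicates, whose scales differ. No paired analysis was possible because there is 1 group. Read depth is unknown, so a gene with no summit may lie below detection.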
